A study of Mus musculus with 8 samples.

Results

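The TRiC chaperonin and the cytosolic Hsp90 proteins are ATP-driven chaperones, and 10 mouse genes that encode them are described here. They are 8 TRiC subunit genes (Tcp1, Cct2, Cct3, Cct4, Cct5, Cct6a, Cct7 and Cct8) and the 2 cytosolic Hsp90 genes (Hsp90aa1 and Hsp90ab1). All were taken by symbol from the 43430 rows of a gene count table. All 10 passed the filter on low counts. They were selected on the fold changes between KO and WT libraries in these same data, so that difference is given below as a description, and no test of it is used as evidence. The RNA came from endothelial cells sorted from the lungs of C57BL/6 mice by CD31, an adhesion molecule on the endothelial surface. The 4 KO libraries came from mice whose endothelium had lost QPC, which belongs to complex III of the mitochondrial respiratory chain and is taken here as the product of Uqcrq. The 4 WT libraries came from wild-type mice. The labels give tamoxifen on postnatal days 0 to 4 as the treatment for every library, and harvest on postnatal day 15. The sources used here do not give the driver and promoter of the recombinase, the sex of the mice, or whether each library is a separate animal. P-values below therefore measure only the spread between these libraries, which may be technical.

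TRiC, also called CCT, is a barrel of a pair of stacked rings. Each ring holds 8 related but distinct subunits around a chamber in which newly made proteins fold, and actin and tubulin are its best known obligate substrates. Hsp90 acts later and on other proteins: it holds kinases, steroid receptors and transcription factors in forms that can be activated, together with a set of cochaperones. In endothelium, endothelial nitric oxide synthase and several receptor tyrosine kinases are known Hsp90 clients. Hsp90ab1 is the constitutive cytosolic form and Hsp90aa1 the form known for its induction by stress.

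All 8 of these TRiC subunit genes and both Hsp90 genes had a higher mean level in KO than in WT libraries. The fitted differences of the 8 subunits lay close together, between 1.48-fold and 1.79-fold, with a median of 1.56-fold (log2 fold change 0.64, individual SE 0.14 to 0.19). The median over all 12689 genes tested was 0.01 on the same scale. Summed over the 8 subunits, TRiC reached 1885, 1803, 1943 and 2030 CPM (reads scaled to library size with TMM factors) in KO libraries 1 to 4, against 1399, 1100, 1069 and 1215 CPM in WT libraries 1 to 4. All 4 KO sums lay above the highest WT sum, and the means were 1915 ± 95.8 CPM in KO, against 1196 ± 149 in WT (SD, n = 4 each). The Hsp90 sum was 2219 ± 90.5 CPM in KO, against 1557 ± 69.0 in WT. Together the 10 genes took 0.41% ± 0.02 of all counts in KO and 0.28% ± 0.01 in WT. In bulk RNA of a sorted population, a changed number of cells of one kind and a changed amount of RNA per cell cannot be told apart.

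Part of the promoter sequence is shown for 3 subunit genes, to let the upstream regions of genes of 1 complex be compared. RefSeq promoter sequence (build GRCm38.p6) was matched by symbol for 7 of the 10 genes, all of them TRiC subunits. Cct4, Hsp90aa1 and Hsp90ab1 were not searched. Each line gives the stretch upstream of the start site that lies in no annotated exon, 5′ to 3′ on the gene's own strand, with CCAAT boxes in capitals. The box reads ATTGG where it lies on the opposite strand. The stretch of Cct2 is chr10:117063853-117064102 on the minus strand, that of Cct3 is chr3:88297000-88297115 on the plus strand, and that of Cct7 is chr6:85451284-85451504 on the plus strand.
Cct2: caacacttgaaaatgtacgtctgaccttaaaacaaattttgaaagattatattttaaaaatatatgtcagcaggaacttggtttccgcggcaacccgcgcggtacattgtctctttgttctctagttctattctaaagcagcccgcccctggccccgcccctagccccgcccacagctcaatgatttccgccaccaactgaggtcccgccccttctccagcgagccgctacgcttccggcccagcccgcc
Cct3: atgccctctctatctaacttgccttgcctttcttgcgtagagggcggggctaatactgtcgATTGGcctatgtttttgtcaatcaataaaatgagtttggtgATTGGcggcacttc
Cct7: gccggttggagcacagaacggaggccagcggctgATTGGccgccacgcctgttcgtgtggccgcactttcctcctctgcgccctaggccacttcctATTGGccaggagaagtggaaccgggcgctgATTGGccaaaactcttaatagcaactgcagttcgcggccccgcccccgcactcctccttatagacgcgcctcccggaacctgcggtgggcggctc
Cct3 held 2 boxes and Cct7 held 3, all on the opposite strand, while Cct2 held none. Over the 250 bases upstream of each start, on both strands, CCAAT was found in 4 of the 7 matched genes (Tcp1, Cct3, Cct6a and Cct7), and in 33.8% of 32851 promoters.

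The motif of heat shock factor, the regulator known to act on Hsp90 and on TRiC genes, was searched in the same 250 bases of the 7 subunit genes. Its form with 3 alternating units of GAA and TTC, 2 bases apart, was in 0.466% of promoters and in 0 of the 7 genes. Of the forms with 2 units, which overlap the longer form, GAANNTTC was in 6.69% of promoters and in 0 of the 7, and TTCNNGAA was in 7.17% and in 1 of the 7, Cct5. The ETS site CCGGAAG was in 6.91% of promoters and in 2 of the 7, Cct2 and Cct8. The core of the amino acid response element, TGATGNAA, and the E-box CACGTG were in 3.45% and 6.02% of promoters and each in 0 of the 7. These are matches of letters in one window and say nothing about binding.

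**Figure D1:**
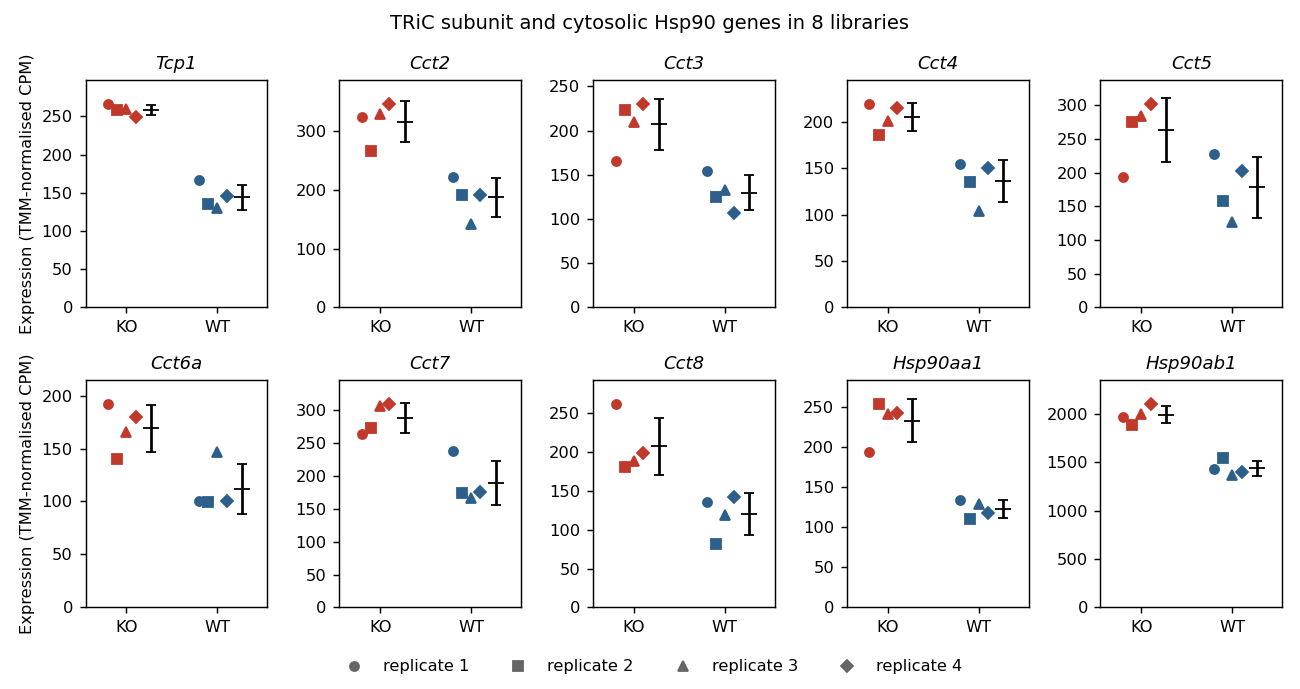
Expression of the 8 TRiC subunit genes and the 2 cytosolic Hsp90 genes in TMM-normalised CPM (vertical axis, each panel from 0), with KO libraries left and WT libraries right in each panel. Points are single libraries with the replicate number as symbol, and the black mark is the mean ± SD (n = 4 each); KO and WT points overlap only for Cct5 and Cct6a.

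Positions of the genes are those of GENCODE release vM21 on GRCm38, the build called mm10. Tcp1 (chr17:12915701-12925067, plus strand), the alpha subunit and the one that names the family, had the tightest KO values. It stood at 266, 258, 260 and 250 CPM in KO libraries 1 to 4, against 167, 135, 130 and 146 CPM in WT libraries 1 to 4 (log2 fold change 0.84, SE 0.14). KO and WT did not overlap, and the lowest KO library was KO 4. Cct2 (chr10:117051001-117063814, minus strand), the beta subunit, had 324, 266, 329 and 346 CPM in KO, against 222, 192, 143 and 192 CPM in WT (0.76, SE 0.16). Here too KO and WT were apart. KO 2 was the lowest of the KO libraries and WT 3 the lowest of the WT libraries. Cct4 (chr11:22990519-23003780, plus strand), the delta subunit, which is mutated in a rat with sensory neuropathy, had 219, 186, 201 and 215 CPM in KO, against 155, 136, 104 and 151 CPM in WT (0.59, SE 0.16). As for Cct2, KO 2 and WT 3 were the lowest in their groups, but the highest KO library was KO 1 rather than KO 4.

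Cct3 (chr3:88297116-88321767, plus strand), the gamma subunit, had 166, 223, 210 and 230 CPM in KO, against 155, 125, 133 and 107 CPM in WT (0.67, SE 0.16). The groups did not overlap, but KO 1 lay just above WT 1. Cct7 (chr6:85451514-85468475, plus strand), the eta subunit, had 263, 273, 306 and 309 CPM in KO, against 238, 174, 167 and 175 CPM in WT (0.61, SE 0.15). WT 1 stood apart from the other WT libraries and still lay below every KO library. Cct8 (chr16:87483326-87495873, minus strand), the theta subunit, whose raised level increases assembled TRiC in the nematode Caenorhabditis elegans, had 262, 181, 188 and 199 CPM in KO, against 135, 81.9, 120 and 142 CPM in WT (0.79, SE 0.19). All KO libraries were above all WT libraries. KO 1 was far above the other KO libraries for Cct8, although it was the lowest KO library for Cct3, Cct5 and Cct7.

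Cct5 and Cct6a were the subunits whose groups overlapped. Cct5 (chr15:31590800-31601804, minus strand), the epsilon subunit, had 194, 275, 284 and 302 CPM in KO, against 227, 157, 126 and 203 CPM in WT (0.56, SE 0.19). KO 1 lay below WT 1 and WT 4, and the other 3 KO libraries lay above every WT library. Cct6a (chr5:129786998-129846371, plus strand), the zeta subunit, had 192, 140, 165 and 180 CPM in KO, against 100, 99.4, 147 and 100 CPM in WT (0.60, SE 0.18). WT 3 lay above KO 2, and the other 3 WT libraries were within a few CPM of each other.

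Hsp90aa1 (chr12:110690605-110702728, minus strand), the inducible cytosolic Hsp90, had 194, 254, 242 and 242 CPM in KO, against 134, 110, 129 and 118 CPM in WT (0.92, SE 0.15). Its groups were apart, and its difference was the largest of the 10. Hsp90ab1 (chr17:45567775-45573271, minus strand), the constitutive form and by far the most abundant of the 10, had 1969, 1885, 1993 and 2098 CPM in KO, against 1431, 1542, 1368 and 1397 CPM in WT (0.47, SE 0.11). Its groups were apart as well, and this was the smallest difference of the 10 on the log2 scale. Per kilobase of transcript, Hsp90aa1 made up 7.03%, 9.38%, 8.54% and 8.15% of the Hsp90 level in KO libraries 1 to 4, against 6.71%, 5.20%, 6.77% and 6.10% in WT libraries 1 to 4. All 4 KO shares lay above all 4 WT shares, though KO 1 only narrowly so.

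In all, 6 of the 8 subunits and 8 of the 10 genes had every KO library above every WT library, as did 6.94% of all genes tested. In the edgeR quasi-likelihood fit over all genes, 7 of the 10 were at a Benjamini-Hochberg adjusted p below 0.05 (Tcp1, Cct2, Cct3, Cct7, Cct8 and both Hsp90 genes), against 3.63% of all genes tested and 2.25% counting higher genes only. Since the 10 were proposed from this same contrast, nothing is read from either count.

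Total counts ran from 6407924 in WT 3 to 13981329 in KO 4, and each of the 10 genes had between 698 and 28976 reads per library. WT 3 lay at the end of the first principal component (28.3% of variance) and KO 1 at the end of the second (23.1%). Without both, the subunit median was 0.65, the mean of both Hsp90 genes was 0.74 (0.70 with all libraries), and 10 of the 10 genes had every KO library above every WT library, as did 12.7% of all genes tested. The only overlaps with all libraries involved KO 1 for Cct5 and WT 3 for Cct6a, so leaving out both libraries had to remove them. Nothing is read from that count. Uqcrq, the gene taken as deleted, had 1.59, 15.6, 9.57 and 14 CPM in KO, against 26.3, 24.5, 26.8 and 31.5 CPM in WT. It did not overlap but did not pass the test over all genes (log2 fold change -1.42, SE 0.53, edgeR adjusted p = 0.179). Of 10 endothelial markers all were detected in every library, with summed levels of 12385 to 15985 CPM in KO and 14191 to 16942 CPM in WT. Of these, 2 (Tek and Erg) were lower in KO by edgeR, against 1.39% of all genes tested. Markers of other cells were present too, and by edgeR none of the tested ones passed in either direction. Over 7 alveolar type 2 markers the sums ran from 3487 to 15699 CPM in KO and from 3650 to 21589 CPM in WT. Over 9 leukocyte markers, of which 8 were at 0 in at least 1 library and 3 were tested, they ran from 388 to 1482 CPM in KO and from 414 to 2003 CPM in WT. Over 5 fibroblast markers they ran from 248 to 1258 CPM in KO and from 264 to 1313 CPM in WT. Sums of alveolar type 1 and airway, smooth muscle and pericyte, lymphatic, and erythroid and platelet markers also overlapped between the groups. The part of these cells in the differences above was not tested.

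Between subunits, levels can be compared only per length. They were divided by the length of each gene's principal transcript, or of the longest transcript for Cct6a, which had no principal one. In KO libraries the order was Cct2 (161 ± 17.8 CPM per kilobase), Cct5 (142 ± 25.7), Cct7 (118 ± 9.6), Tcp1 (106 ± 2.8), Cct3 (105 ± 14.6), Cct8 (86.8 ± 15.4), Cct4 (82.6 ± 6.1) and Cct6a (69.0 ± 9.1). In WT libraries it was Cct5 (96.3 ± 24.4 CPM per kilobase), Cct2 (95.5 ± 16.8), Cct7 (77.1 ± 13.7), Cct3 (65.7 ± 9.9), Tcp1 (59.0 ± 6.7), Cct4 (54.9 ± 9.2), Cct8 (50.1 ± 11.3) and Cct6a (45.5 ± 9.6; SD, n = 4 libraries). Neighbours in either order had overlapping ranges of mean ± SD, so only genes farther apart in the order were separated. Cct2, Cct5 and Cct7 led in both groups and Cct6a was last in both with these lengths. Although the barrel holds the subunits in equal number, the mean mRNA level per length of the highest was 2.11 times that of the lowest in WT. With the length of all annotated exons in place of the principal transcript that ratio became 3.59, and the order changed. Cct2 and Cct5 still led in both groups, but Cct8 came next, Cct7 was next to last (42.4 CPM per kilobase in KO and 27.8 in WT) and Cct3 was last (32.5 in KO and 20.4 in WT). Beyond Cct2 and Cct5, the order rests on the transcript chosen. Hsp90ab1 stood at 788 ± 34.8 CPM per kilobase in KO and 569 ± 30.1 in WT, and Hsp90aa1 at 71.0 ± 8.2 in KO and 37.4 ± 3.3 in WT.

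**Figure D2:**
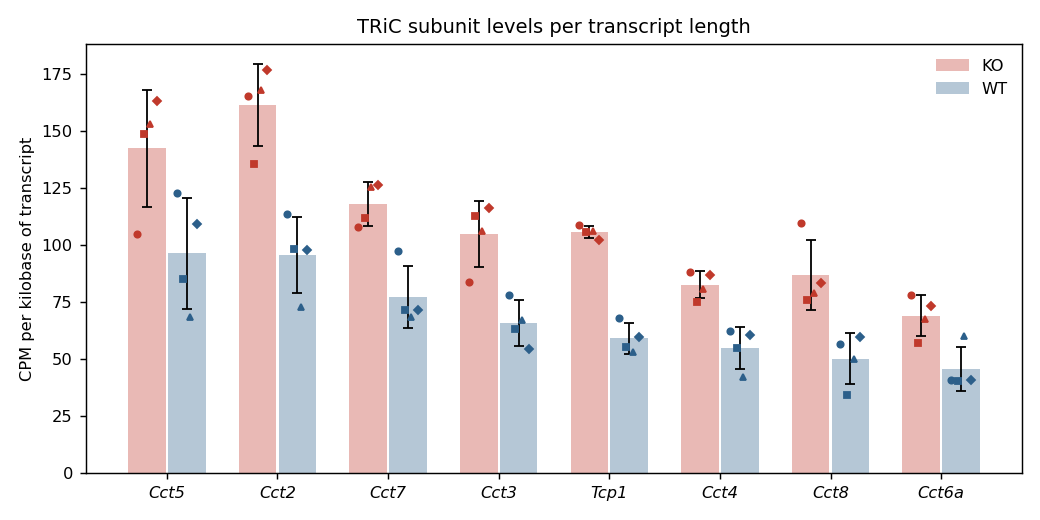
Levels of the 8 TRiC subunit genes in TMM-normalised CPM per kilobase of principal transcript (longest transcript for Cct6a; vertical axis), ordered by the WT mean, with KO left of WT for each gene. Bars are means, error bars SD (n = 4 libraries each) and points single libraries; the KO bar is above the WT bar for every subunit, and Cct5, Cct2 and Cct7 lead in both groups with this length, Cct7 no longer with exon-union lengths.

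The variation of the genes among libraries of the same genotype leaves out the KO and WT difference itself. It is not free of the selection, since genes chosen on that difference may have a small spread within groups. After each group's mean was removed, the SD of log2 CPM was 0.22 for the median subunit, with 0.12 for Tcp1 at the low end and 0.34 for Cct5 at the high end. It was 0.15 for Hsp90aa1 and 0.07 for Hsp90ab1. The median over 9293 genes with a mean of at least 10 CPM was 0.39, a figure that also holds genes with far fewer reads. Of the 28 pairs of subunits, 20 had a correlation above 0 over the 8 libraries, with a median r of 0.33. The closest pair was Cct2 and Cct4 (r = 0.92), followed by Cct5 and Cct7 (0.76) and by Tcp1 and Cct7 (0.74). Cct6a had r below 0 with 6 of the 7 other subunits, from -0.69 with Cct5 to 0.31 with Cct8, and without it the median of the other 21 pairs was 0.52. Cct3 followed Hsp90aa1 (r = 0.84) more closely than any subunit. These values share libraries, depth and normalisation, and are descriptions over 8 points.

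**Figure D3:**
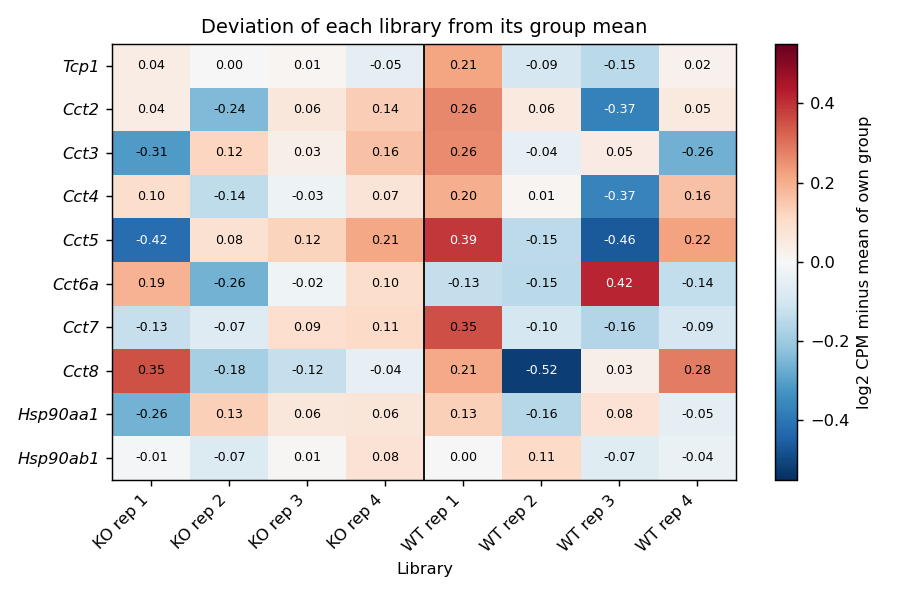
Deviation of each gene in each library from the mean of its own group (colour and printed value, log2 CPM), with the 10 genes down the page and the 4 KO libraries left of the 4 WT libraries. WT 1 is above its group mean for most subunits, WT 3 is low for Cct2, Cct4 and Cct5 but high for Cct6a, and KO 1 is low for Cct3 and Cct5 but high for Cct8.

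Single libraries deviated in different directions for different subunits. In KO 1, Cct5 was 0.42 and Cct3 0.31 below the KO mean on the log2 scale, while Cct8 was 0.35 and Cct6a 0.19 above it. In WT 3, the library with the fewest counts, Cct5 was 0.46 below the WT mean and Cct2 and Cct4 were each 0.37 below it, while Cct6a was 0.42 above it. WT 2 had the lowest single value, 0.52 below the WT mean for Cct8. Averaged over the 8 subunits, the deviation was highest in WT 1 (0.22) and lowest in WT 3 (-0.13).

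By a fixed rule, the 8 genes most like TRiC were those whose deviations within groups correlated best with the mean of the 8 subunits, among 9105 other genes with a mean of at least 10 CPM. They were Slc6a8, the creatine transporter (r = 0.98), Bop1, a ribosome assembly factor (0.97), Tpt1, an abundant translation-associated protein (0.97), Rack1, a protein of the small ribosomal subunit (0.96), Acot7, an acyl-CoA thioesterase (0.96), Ptpn2, a tyrosine phosphatase (0.95), Alg9, a mannosyltransferase (0.95), and Rplp2, a ribosomal stalk protein (0.94). These are the top of a long ranking over 8 libraries and are given without a test. Between groups, 3 of the 8 were higher in KO by edgeR at an adjusted p below 0.05, against 2.25% of all genes tested. The rule did not use that difference directly, but the subunits it was built on were selected on it. Nothing is therefore read from this count. Rack1 had a log2 fold change of 0.78 (SE 0.13, edgeR adjusted p = 0.00244), and Rplp2 of 0.79 (SE 0.15, edgeR adjusted p = 0.00749). Tpt1 had 0.49 (SE 0.12, edgeR adjusted p = 0.0315), but missed the threshold when KO 3, KO 4, WT 2, WT 3 or WT 4 was left out (edgeR adjusted p up to 0.0997). The other 5 ranged from 0.54 for Alg9 to 0.94 for Bop1 and did not pass. Of these, Acot7 (0.84, SE 0.27, edgeR adjusted p = 0.106) passed when WT 1 was left out (edgeR adjusted p = 0.0175).

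The genes next to the members bear on how their reads were counted. Tcp1 shares 645 bases with Mrpl18 on the opposite strand and 1255 with Acat3. Cct6a shares 452 bases with Psph, Cct7 shares 457 with Pradc1 and Cct8 shares 192 with Usp16, all on opposite strands. Without a stated strand setting of the counting, reads from those stretches cannot be told apart from their partner's. The partners were low: Psph averaged 16.3 ± 5.8 CPM in KO, against 6.58 ± 6.1 in WT, and Usp16 29.0 ± 1.1 CPM in KO, against 32.5 ± 10.6 in WT. The 4 partners with a fitted value did not pass (log2 fold changes from -0.16 for Usp16 to 1.30 for Psph, edgeR adjusted p from 0.454 to 0.974). Processed pseudogenes are the other source of doubt. Hsp90aa1 had 5 near-identical copies elsewhere in the annotation with 103 counts over all libraries, against 16898 for the gene itself. Hsp90ab1 had 2 copies with 13 counts, against 160361, and Cct7 had 1 with 32 counts, against 22525. Tcp1 also matched a processed transcript of Acat2, not a pseudogene, over 445 bases, and that gene had 1031 counts, against 19064 for Tcp1. Acat2 had 176, 221, 138 and 302 counts in KO 1 to 4, against 88, 13, 35 and 58 in WT 1 to 4. Its part in the Tcp1 difference was not tested.

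The groups of chaperones, substrates and clients below were chosen with earlier results of these data known, so their counts are descriptions. Of 83 other chaperone genes tested, in 6 groups around TRiC and Hsp90, 1 rose by edgeR and 0 fell. There were 11 at an unadjusted p below 0.05, 4 higher and 1 lower by DESeq2, and 1 higher by limma voom. Over all genes tested, 3.63% passed by edgeR, 15.2% had an unadjusted p below 0.05, and 6.21% passed by DESeq2 and 3.92% by limma voom. The median log2 fold change of the 83 was 0.13, against 0.01 over all genes tested. The gene that rose was St13, which encodes Hip, a cochaperone that holds Hsp70 in its ADP-bound form. It had 178, 162, 186 and 179 CPM in KO, against 93.8, 124, 103 and 131 CPM in WT (log2 fold change 0.64, SE 0.16, edgeR adjusted p = 0.0327). No KO library overlapped a WT library. The call was lost when any 1 KO library, WT 1 or WT 3 was left out (edgeR adjusted p 0.0535 to 0.113).

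Relatives of the chaperonins and of Hsp90, a group of mitochondrial and endoplasmic reticulum forms, the chaperonin-like genes Mkks, Bbs10 and Bbs12, and Cct6b, had the highest median of the 6 groups, 0.55, but 0 of 7 tested passed by edgeR (3 at an unadjusted p below 0.05, 1 higher by DESeq2, 0 by limma voom). Hsp90b1, the Hsp90 of the endoplasmic reticulum, had 843, 747, 752 and 625 CPM in KO, against 610, 524, 575 and 528 CPM in WT (0.41, SE 0.13, edgeR adjusted p = 0.094). Hspd1, the mitochondrial chaperonin Hsp60, had 152, 114, 123 and 104 CPM in KO, against 69.1, 53.1, 93.4 and 92.7 CPM in WT (0.68, SE 0.21, edgeR adjusted p = 0.0962). Neither pair of groups overlapped. Mkks (-0.69) and Bbs10 (-0.65) had negative log2 fold changes and did not pass by edgeR, and were named after their values were seen. Cct6b, a TRiC subunit known from testis, had 0 counts in all 8 libraries, which allows up to 3 counts in each.

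Prefoldin, which hands actin and tubulin chains to TRiC, was grouped with the phosducin-like helpers of TRiC. Of 9 tested, 0 passed by edgeR (1 at an unadjusted p below 0.05, 1 lower by DESeq2, 0 by limma voom), and the median was 0.10. The gene lower by DESeq2 was Pdcl (log2 fold change -0.58, SE 0.20, edgeR adjusted p = 0.145, DESeq2 adjusted p = 0.0489). Its KO libraries all lay below every WT library, and it was named after its values were seen. Pfdn5 had 111 ± 23.6 CPM in KO, against 108 ± 25.1 in WT (0.03, SE 0.21, edgeR adjusted p = 0.985), and Vbp1 had 75.2 ± 17.0 CPM in KO, against 65.5 ± 11.3 in WT (0.20, SE 0.22, edgeR adjusted p = 0.808). The R2TP and prefoldin-like complex works with Hsp90 on the assembly of large complexes, and 0 of its 8 genes passed by edgeR (1 at an unadjusted p below 0.05, 0 by DESeq2 or limma voom; median 0.16). Ruvbl2, an ATPase of that complex, had a log2 fold change of 0.51 (SE 0.21, edgeR adjusted p = 0.249), and Uri1, its prefoldin-like scaffold, of -0.24 (SE 0.20, edgeR adjusted p = 0.709).

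Of 22 Hsp90 cochaperones, 0 passed by edgeR (2 at an unadjusted p below 0.05, 0 by DESeq2 or limma voom), and the median was 0.04. Ptges3, the p23 protein that stabilises the closed form of Hsp90, had 144, 193, 166 and 171 CPM in KO, against 138, 80.0, 105 and 127 CPM in WT (0.58, SE 0.18, edgeR adjusted p = 0.101), with every KO library above every WT library. Cdc37, which brings kinases to Hsp90, had 180 ± 35.5 CPM in KO, against 166 ± 42.5 in WT (0.12, SE 0.20, edgeR adjusted p = 0.887). Of 27 tested genes of the cytosolic Hsp70 system, St13 alone passed (3 at an unadjusted p below 0.05, 2 higher by DESeq2, 1 by limma voom; median 0.15). Of 10 heat shock factors and small heat shock proteins, 0 passed by edgeR (1 at an unadjusted p below 0.05, 1 higher by DESeq2, 0 by limma voom; median 0.26). Hsf1, the main heat shock factor, had 31.5 ± 5.5 CPM in KO, against 28.4 ± 11.1 in WT (0.15, SE 0.33, edgeR adjusted p = 0.923). Hsbp1, which binds it, had a log2 fold change of 0.32 (SE 0.17, edgeR adjusted p = 0.426). Hspb1, a small heat shock protein, had 1.22 (SE 0.36, edgeR adjusted p = 0.0779) and passed by DESeq2 (adjusted p = 0.0448). Dnajc2, of the Hsp70 system, had 0.98 (SE 0.28, edgeR adjusted p = 0.0625) and passed by DESeq2 (adjusted p = 0.0270). Both had every KO library above every WT library, and both were named after their values were seen.

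**Figure D4:**
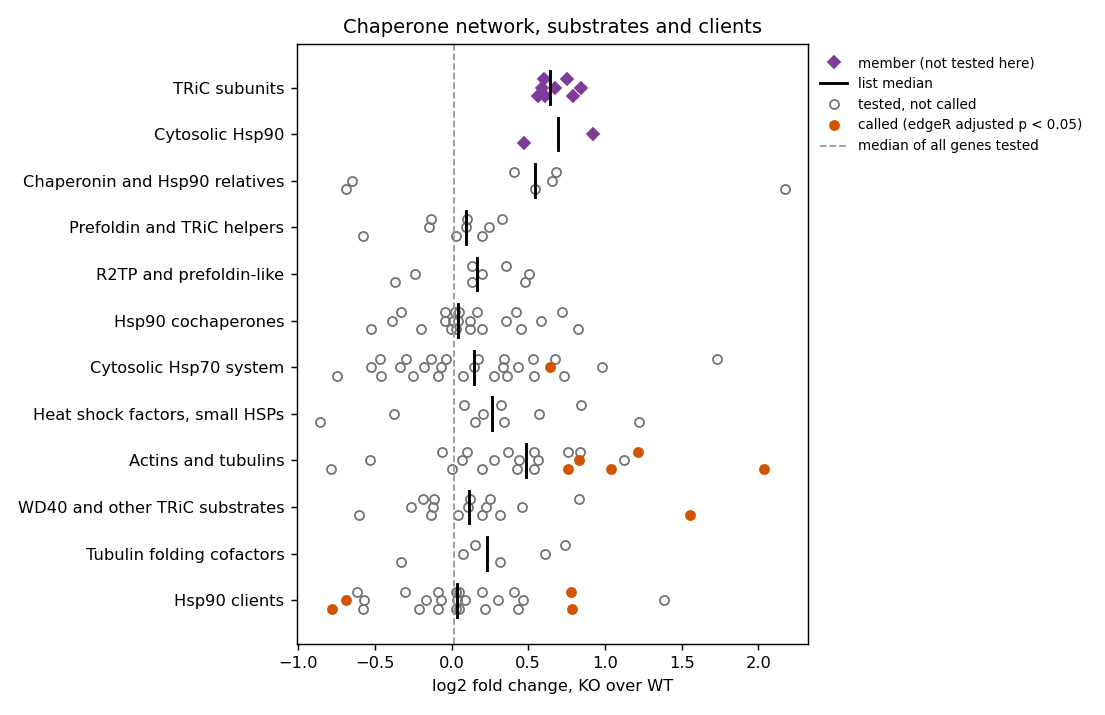
Log2 fold change, KO over WT (horizontal axis), of each tested gene in the TRiC and Hsp90 sets and in 10 groups of related genes (down the page). Purple diamonds are the 10 members, open circles genes that did not pass, filled circles genes at an edgeR adjusted p below 0.05, black bars the group medians and the dashed line the median of all genes tested; 5 of the filled circles are actins and tubulins, and 4 are Hsp90 clients.

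Among TRiC's own substrates, both cytoplasmic actins rose in KO, as did a pair of tubulins and an actin-related protein. Of 22 tested actin, actin-related and tubulin genes, 5 rose and 0 fell by edgeR (9 at an unadjusted p below 0.05, 6 higher by DESeq2, 5 by limma voom), against 2.25% of all genes tested, and the median was 0.49. Since the list was chosen with earlier results of these data known, nothing is read from this count. Actb, cytoplasmic beta-actin, had 5112, 4299, 5016 and 4339 CPM in KO, against 2696, 2183, 2166 and 2100 CPM in WT (1.04, SE 0.12, edgeR adjusted p = 0.000207). Actg1, cytoplasmic gamma-actin, had 3749, 2746, 3428 and 2776 CPM in KO, against 1652, 1232, 1372 and 1214 CPM in WT (1.22, SE 0.14, edgeR adjusted p = 0.000207). For both actins every KO library lay far above every WT library. Tubb6, a beta-tubulin, had 136, 135, 160 and 195 CPM in KO, against 35.1, 55.7, 28.9 and 32.5 CPM in WT (2.04, SE 0.23, edgeR adjusted p = 0.000207). It had the largest difference of the group. Tuba1b, an alpha-tubulin, had 204, 217, 224 and 342 CPM in KO, against 151, 141, 133 and 131 CPM in WT (0.83, SE 0.17, edgeR adjusted p = 0.0113). Actr3, the Arp3 subunit of the actin-nucleating Arp2/3 complex, had 471, 417, 446 and 429 CPM in KO, against 306, 227, 281 and 228 CPM in WT (0.76, SE 0.14, edgeR adjusted p = 0.00461). Groups overlapped for none of the 5. Actins and tubulins have close paralogs and pseudogenes, and the sources used here do not say how reads shared between copies were counted, so the split between single genes is uncertain.

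Other abundant tubulins did not pass by edgeR. Tubb5 had 1512 CPM in KO, against 1041 in WT on average (0.54, SE 0.16, edgeR adjusted p = 0.0852). It passed by DESeq2 (adjusted p = 0.0271). Tuba1a had 544 CPM in KO, against 520 in WT (0.06, SE 0.16, edgeR adjusted p = 0.936), and passed by neither. Both were chosen after their values were seen. Of 6 tubulin folding cofactors, which take tubulin from TRiC and join it into dimers, 0 passed by edgeR (2 at an unadjusted p below 0.05, 0 by DESeq2 or limma voom; median 0.23). Tbcd had a log2 fold change of 0.61 (SE 0.22, edgeR adjusted p = 0.166) and Tbca of 0.15 (SE 0.22, edgeR adjusted p = 0.873). Of 16 other TRiC substrates, most of them WD40 propeller proteins, 1 rose and 0 fell by edgeR (3 at an unadjusted p below 0.05, 1 higher by DESeq2, 0 by limma voom; median 0.11). It was Plk1, a mitotic kinase, with 26.4, 53.0, 30.1 and 50.0 CPM in KO, against 10.9, 15.8, 9.12 and 18.5 CPM in WT (1.55, SE 0.36, edgeR adjusted p = 0.0217). The groups did not overlap, and the call was lost without KO 2, KO 4, WT 1 or WT 3 (edgeR adjusted p 0.0518 to 0.108).

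Of 26 tested Hsp90 client genes, 2 rose and 2 fell by edgeR, against 3.63% of all genes tested in either direction. At an unadjusted p below 0.05 were 6, with 2 higher and 3 lower by DESeq2, and 1 higher and 2 lower by limma voom. The median log2 fold change was 0.03. Ahr, the aryl hydrocarbon receptor, whose unliganded form is held by Hsp90, had 272, 253, 288 and 272 CPM in KO, against 383, 504, 477 and 500 CPM in WT (-0.78, SE 0.13, edgeR adjusted p = 0.00292). Tek, the angiopoietin receptor Tie2, had 644, 604, 493 and 592 CPM in KO, against 793, 1108, 888 and 976 CPM in WT (-0.69, SE 0.14, edgeR adjusted p = 0.00762). For both, every KO library lay below every WT library, as for 4.67% of all genes tested.

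Cdk4, a cell cycle kinase, had 204, 247, 187 and 342 CPM in KO, against 145, 131, 143 and 149 CPM in WT (0.79, SE 0.18, edgeR adjusted p = 0.0218). The groups did not overlap, but KO 4 lay far above the other KO libraries. The call was lost without KO 2, KO 4, WT 2, WT 3 or WT 4 (edgeR adjusted p 0.0549 to 0.0844). Hif1a, the oxygen-regulated transcription factor subunit, had 257, 144, 185 and 140 CPM in KO, against 119, 103, 86.7 and 114 CPM in WT (0.78, SE 0.20, edgeR adjusted p = 0.0407). The groups did not overlap. The call was lost when KO 1, KO 3 or any 1 WT library was left out (edgeR adjusted p 0.0595 to 0.114), and without both KO 1 and WT 3 (0.187). Nr3c1, the glucocorticoid receptor, had 165, 130, 154 and 117 CPM in KO, against 179, 253, 241 and 195 CPM in WT (-0.62, SE 0.17, edgeR adjusted p = 0.0526). Its groups did not overlap, and it passed by DESeq2 (adjusted p = 0.00939). Nos3, endothelial nitric oxide synthase (0.22), and Kdr, the receptor VEGFR2 (0.09), were among the clients that did not pass by edgeR. These 3 were chosen after their values were seen.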

How the data were processed

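RNA-seq libraries of sorted lung endothelial cells, 4 KO and 4 WT, were grouped by their labels. The authors deposited 1 table of unnormalised counts, with genes in rows and libraries in columns, and 0 value columns were left unmatched. The submitters' processing notes name TopHat and HTSeq, besides bcl2fastq and edgeR, and the mm10 build. The sources used here do not give versions, annotation or strand setting. Total RNA was purified on columns with DNase, per the labels' protocols. Of 43430 gene IDs, 42546 were paired with a symbol from the reference tables.

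Counts were scaled with TMM factors, filtered with filterByExpr (minimum count 10, minimum total 15; 12689 genes left) and fitted with the quasi-likelihood test of edgeR 4.0.16 in R 4.3.3, with genotype as the only term. P-values were adjusted over all genes tested by Benjamini-Hochberg, with a threshold of 0.05. The SE of a log2 fold change was derived from the F statistic. The 10 genes and all lists were chosen with earlier results of these data known, and the 10 genes' difference between KO and WT was used in proposing them. The fits were also run on simulated counts with 200 changed genes. The share of these that was recovered is not given here, so a gene that did not pass may still differ.

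Named genes were all 10 members, in each list the genes past the threshold (up to 6) or otherwise the 2 with the highest mean CPM, the 8 genes most like TRiC within groups, and Uqcrq. Levels per length used principal transcripts of GENCODE vM21 (the longest transcript for Cct6a). Deviations within groups used log2 CPM with 0.5 added to each count before scaling. Near-identical copies were sought with BLAST 2.17.0 (at least 90% identity over 200 bases). Alternatives were RLE and upper quartile factors, no filter, a stricter filter (5 CPM in 4 libraries), DESeq2 1.42.0, limma voom 3.58.1, the replicate number as a block, removal of each library's trend on length and GC content, removal of mitochondrial and haemoglobin genes, and leaving out each library in turn. Leaving out WT 3 with KO 1, edgeR's newer dispersion option and exon-union lengths were chosen after seeing the data. Reads carry no molecular identifiers, so count limits cover counting error only.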

Additional observations from a re-analysis of the deposited data

Results flagged for a closer look

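In 4 of 44 groups of 4 libraries checked, 1 library stood farther from the others than the critical value of Dixon's gap test allows. Chance flags about 1 in 20 such groups, and the groups share libraries. Cct6a reached 147 CPM in WT 3, against 99.4 to 100 CPM in the other WT libraries. Cct7 reached 238 CPM in WT 1, against 167 to 175 CPM in the other WT libraries. As a share of the summed TRiC level per kilobase, Cct5 was 12.4% in KO 1, against 17.3% to 18.1% in the other KO libraries. Cct8 was 12.9% in KO 1, against 8.89% to 9.21% in the other KO libraries. The causes were not tested.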

How the results depend on the processing

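All 190 values of the 10 genes under 19 alternatives stayed above 0, and 189 moved by less than 1 SD between libraries. The exception was Hsp90ab1, at 0.38 once each library's trend on length and GC content was removed. The TRiC median ranged from 0.59 to 0.76 and the Hsp90 mean from 0.65 to 0.74. The count over all genes, 461, became 788 with DESeq2 and 747 with the newer dispersion option, and 270 to 446 with 1 library left out. The count in the chaperone network, 1, became 2 with no filter, 5 with DESeq2, 3 with the newer dispersion option, 0 with the replicate block, and 0 to 1 with 1 library left out. The count among substrates and clients, 10, ranged from 7 to 12. KO and WT libraries share replicate numbers, but same-numbered libraries did not deviate together (r from -0.10 to 0.0044), so the numbers were not taken as pairs. With the replicate block, 338 genes were called and the TRiC median was 0.65. The block ended the calls of St13, Hif1a and Tpt1 (edgeR adjusted p = 0.0807, 0.0693 and 0.0585).

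Genes near 0 changed sign: Pfdn5 was -0.0040 with RLE factors, -0.0040 with DESeq2, -0.17 without the length and GC trend and -0.079 to 0.19 with 1 library left out. Tbca was -0.070 without that trend, -0.064 without both WT 3 and KO 1, and -0.014 to 0.30 with 1 library left out. Hsf1 was -0.13 without both and -0.013 to 0.40 with 1 library left out. Actb, Actg1, Actr3, Tubb6, Tuba1b, Ahr, Tek, Rack1 and Rplp2 passed under all 19 alternatives. Hif1a also missed the threshold with RLE factors, the stricter filter and limma voom, Plk1 with limma voom, and Tpt1 without the length and GC trend, where it stood at 0.29. Hsp90b1 passed with DESeq2 (adjusted p = 0.0300), Hspd1 with edgeR's newer option (adjusted p = 0.0481), and Acot7 with no filter and without WT 1 (edgeR adjusted p = 0.0345 and 0.0175). The ratio of highest to lowest subunit level per length, 2.11, was 3.59 with exon-union lengths. The causes were not tested.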
